A study of Mus musculus with 5 samples.

Results

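Nuclei chosen for the RNA of Rorb, Cux2 and 3 further genes of cortical-type excitatory neurons were described in single-nucleus libraries of mouse hippocampus. Rorb and Cux2 are best known from the upper and middle layers of the neocortex. The label held only in part, since the chosen nuclei included glia and, in every library, nuclei without a Rorb UMI. Rorb encodes a nuclear receptor that marks layer 4 neurons, and Cux2 encodes a homeodomain factor of upper-layer intratelencephalic (IT) neurons, which send axons within the forebrain. The members were chosen by RNA. For each of Rorb, Cux2, Pdzrn3 (a ubiquitin ligase gene), Kcnh5 (a voltage-gated potassium channel) and Efna5 (a ligand of Eph receptors), UMIs, which are counted RNA molecules, were scaled to 10000 per nucleus, logged and standardised over all nuclei with at least 1000 detected genes. A nucleus was a member when the mean of these 5 standardised values was at least 1 and exceeded the same score of 5 subicular genes (Tshz2, Vwc2l, Npsr1, Atp10b, Bmper) and of 5 deep-layer genes (Foxp2, Hs3st4, Rai14, Sulf1, Cobll1). The score of the inhibitory genes Gad1, Gad2 and Slc32a1 also had to be below 0.5. The rule found 1387 members among 27681 nuclei. Subicular-type nuclei (1936) and deep-layer-type nuclei (1706), chosen by the same rule on their own genes, were the nearest classes and served for comparison.

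The study measured RNA and open chromatin in the same nuclei (10x multiome) with 1 library per genotype. The 5 libraries came from wild type mice, 5xFAD mice, and 5xFAD mice labelled as lacking MAGL in astrocytes, in neurons or globally. 5xFAD mice carry mutant human transgenes under the Thy1 promoter, which is active in neurons, and serve as an amyloid model. All 3 MAGL-KO libraries are on that background. MAGL, encoded by Mgll, breaks down the endocannabinoid 2-AG, which activates the cannabinoid receptor Cnr1. The labels give hippocampus as the tissue and 1 batch for all libraries. They give no age, no number of animals and no driver of the cell-type knockouts.

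In the neocortex, upper-layer and layer 4/5 IT neurons connect cortical areas with each other. Neurons that project out of the forebrain express Bcl11b, and corticothalamic neurons express Foxp2 and Tle4. The hippocampal formation borders on subicular, retrosplenial and entorhinal cortex, whose neurons share several of these genes.

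Members made up 3.95% (204 of 5163 nuclei; exact binomial 95% interval 3.44 to 4.52) of the wild type library and 8.33% (427 of 5124; 7.59 to 9.12) of the 5xFAD library. The share was 4.27% (258 of 6042; 3.77 to 4.81) in the library labelled astrocyte MAGL-KO, 3.74% (150 of 4009; 3.18 to 4.38) in neuron MAGL-KO and 4.74% (348 of 7343; 4.26 to 5.25) in global MAGL-KO. The 5xFAD library thus held the highest share, and its interval did not overlap those of the other 4. These intervals cover counting error only. With 1 library per genotype, differences between dissections, animals and genotypes cannot be told apart, and no comparison between libraries was tested. Subicular-type nuclei numbered 362, 392, 469, 264 and 449 in the same order (wild type, 5xFAD, then astrocyte, neuron and global MAGL-KO, an order kept throughout). Deep-layer-type nuclei numbered 287, 282, 390, 268 and 479. These are counts, which also follow the size of each library.

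Summed UMIs over members ran from 2958259 in neuron MAGL-KO to 9317146 in 5xFAD, and median UMIs per member from 13879.5 in astrocyte MAGL-KO to 18624 in wild type. Each library held nuclei with Xist UMIs and nuclei with Y-linked UMIs, and therefore nuclei of at least 1 female and 1 male. Of the members, 11.5% carried both, with a median of 37270.5 UMIs against 15267 in the others. The share of such nuclei was 19.1% in wild type and 6.67% in neuron MAGL-KO. Members with Xist alone made up 45.1%, 41.0%, 38.0%, 66.7% and 48.0%, and those with Y-linked UMIs alone 29.4%, 43.1%, 46.5%, 24.0% and 34.8%. The libraries thus differed in their make-up by sex, most in neuron MAGL-KO. The part of sex in the comparisons between libraries was not tested. Between 29 and 63 barcodes were shared by any 2 libraries (0.694% to 1.16% of the smaller one), and 0 by members of different libraries. Mgll itself stood at 112, 96.3, 116, 136 and 90.4 CPM (UMIs per 1000000) in members. Against 5xFAD it was higher by 0.27 (95% interval 0.11 to 0.42) on the log2 scale in astrocyte MAGL-KO and by 0.50 (0.33 to 0.67) in neuron MAGL-KO. In global MAGL-KO the difference was -0.09 (-0.24 to 0.06). Mgll RNA was therefore not lower, beyond its interval, in the libraries labelled neuron and global MAGL-KO. A label of loss in astrocytes is not checked by these mostly neuronal nuclei. Where the deletion lies in Mgll is not known here, and the libraries are called by their labels throughout.

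The data went against the name of the class in part. Clustering of the 1387 members gave 11 groups, which included glia and deep nuclei that carried markers of both sexes. In groups 1, 5, 7, 8 and 10 between 12.7% and 46.4% of the nuclei carried both, against 0% to 1.31% in groups 2, 3, 4, 6, 9 and 11. The latter 6 groups are called the single-sex groups, after a threshold of 10% that was set after the values were seen. They held 805 nuclei, or 58.0% of the members, and are given as descriptions beside the results over all members. The threshold says nothing of cell type: these groups hold no group named as glial, but groups 2, 4 and 11 have no cell type name either. The genes named below also drove the clustering and are no independent support for the groups.

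Group 6 (192 nuclei), called layer 4/5 IT-like, carried both genes, with Rorb at 897 CPM and Cux2 at 331 CPM. Both genes chose the members, and the median member score was highest in this group (2.86), so their levels are no support for its name. None of the genes given for group 6 here is on the layer 4/5 IT list. The rule for names asks only that at least 3 genes of a list be detected, and their levels in group 6 are not given. Col26a1 (164 CPM), a collagen gene, the deafness gene Whrn (97.6 CPM) and the activity-regulated genes Egr3 (104 CPM) and Homer1 (2255 CPM) were among its leading genes. Group 9 (206 nuclei) was upper-layer IT-like, with Rasgrf2 at 435 CPM, Enpp2 at 224.5 CPM, Otof at 43.0 CPM and Rgs6, a regulator of G protein signalling, at 1556 CPM. Group 3 (78 nuclei) was layer 4/5 IT-like, with Il1rapl2 at 2257 CPM, Etv1 at 249 CPM and Deptor, an mTOR inhibitor, at 167 CPM. It also carried the subicular rule gene Tshz2, at 1387 CPM against 299.6 CPM over all nuclei. Groups 2 and 4 carried genes of the subicular list as well and were left without a name. Group 2 (241 nuclei) held Gpc6 at 3120 CPM, Vwc2l at 874 CPM and Tshz2 at 2003 CPM. Group 4 (76 nuclei) held Tshz2 at 1876 CPM, Zfpm2 at 1369 CPM and the serotonin receptor gene Htr2c at 568 CPM. In these groups other than group 6, Rorb was at 257 CPM and Cux2 at 23.3 CPM in group 3, against 69.4 and 382 CPM in group 9, 15.1 and 349 CPM in group 2, and 4.37 and 157 CPM in group 4. Groups 1, 10 and 8, described next, carried both genes, with Rorb at 459, 554 and 240 CPM and Cux2 at 254, 185 and 136 CPM, against 32.7 and 50.0 CPM over all nuclei.

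None of the other 6 groups could be named from cortical markers. Group 5 (110 nuclei, median 4626.5 UMIs) was astrocyte-like, with the glutamate transporter gene Slc1a3 at 1463 CPM, Apoe at 2351 CPM and the gap junction gene Gja1 at 406 CPM, and its 1535 CPM of Rorb was the highest level of any group. Group 1 (64 nuclei, median 6890.5 UMIs) was oligodendrocyte-precursor-like, with Pdgfra at 329 CPM, Vcan at 834 CPM and Bcas1, which marks differentiating oligodendrocytes, at 664 CPM. Astrocytes as a class carried Rorb at 470 CPM, above the 281 CPM of the members. Group 8 (224 nuclei) had a median of 32376 UMIs, and 46.4% of its nuclei carried markers of both sexes. Relative to the other member groups it was led by Cdh9 (281 CPM), Lmo3 (113 CPM) and Bcl11b (125 CPM), all below their levels over all nuclei (401, 132 and 169 CPM). Group 7 (134 nuclei) was led by Angpt1 (349 CPM), Rerg (221 CPM) and Trps1 (2211 CPM), the last of which was on the CA3 list. Group 10 (50 nuclei) carried Synpo2 at 1042 CPM, the Wnt effectors Lef1 (567 CPM) and Tcf7l2 (487 CPM), and Prkcd (224 CPM). Group 11 (12 nuclei) was led by the Ebf family, with Ebf2 at 1329 CPM and Ebf3 at 1073 CPM.

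**Figure D1:**
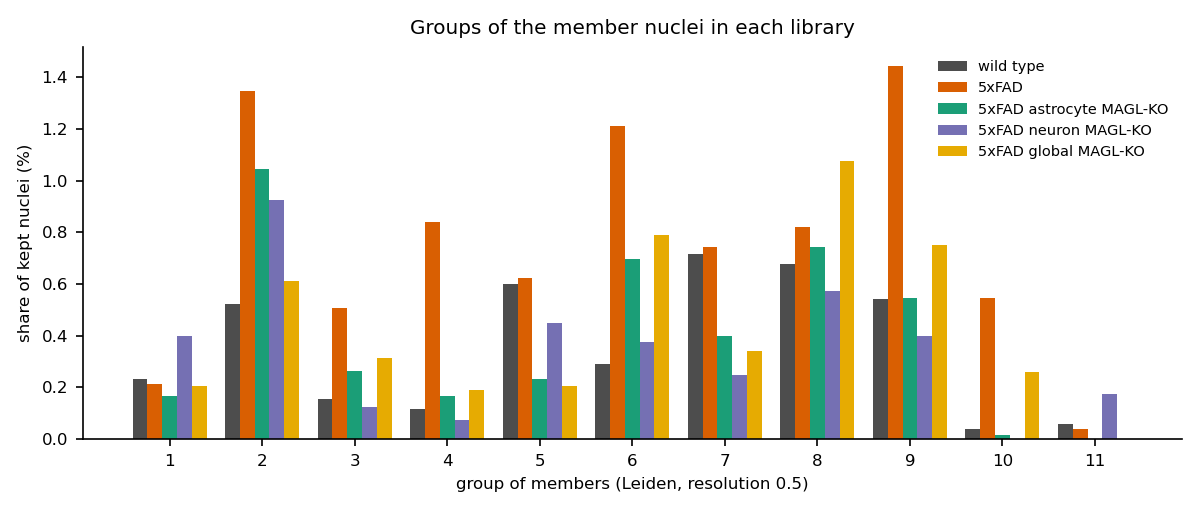
Share of kept nuclei (percent, y axis) that fell in each of the 11 member groups, for each of the 5 libraries (1 library per genotype). Group 10 is almost wholly from the 5xFAD library (28 nuclei) and the global MAGL-KO library (19 nuclei), against 2, 1 and 0 nuclei in the others.

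The groups were spread unevenly over the libraries. Nuclei of the single-sex groups numbered 87, 276, 164, 83 and 195, which is 1.69%, 5.39%, 2.71%, 2.07% and 2.66% of all kept nuclei. They formed 42.6% of the members in wild type and 64.6% in 5xFAD, with 63.6%, 55.3% and 56.0% in the 3 MAGL-KO libraries. The groups left out of them thus formed 57.4% of members in wild type and between 35.4% and 44.7% elsewhere. Group 5 held 31, 32, 14, 18 and 15 nuclei, group 1 held 12, 11, 10, 16 and 15, and group 4 held 6, 43, 10, 3 and 14. Group 10 held 2, 28, 1, 0 and 19 nuclei. Group 11, the smallest of the single-sex groups, held 3, 2, 0, 7 and 0, so it weighs most in neuron MAGL-KO. Any value over all members therefore mixes levels per nucleus with the share of each group, and values in the single-sex groups are given beside the results that turn on it. Only 6 of the 160 members with markers of both sexes lay in the single-sex groups.

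**Figure D2:**
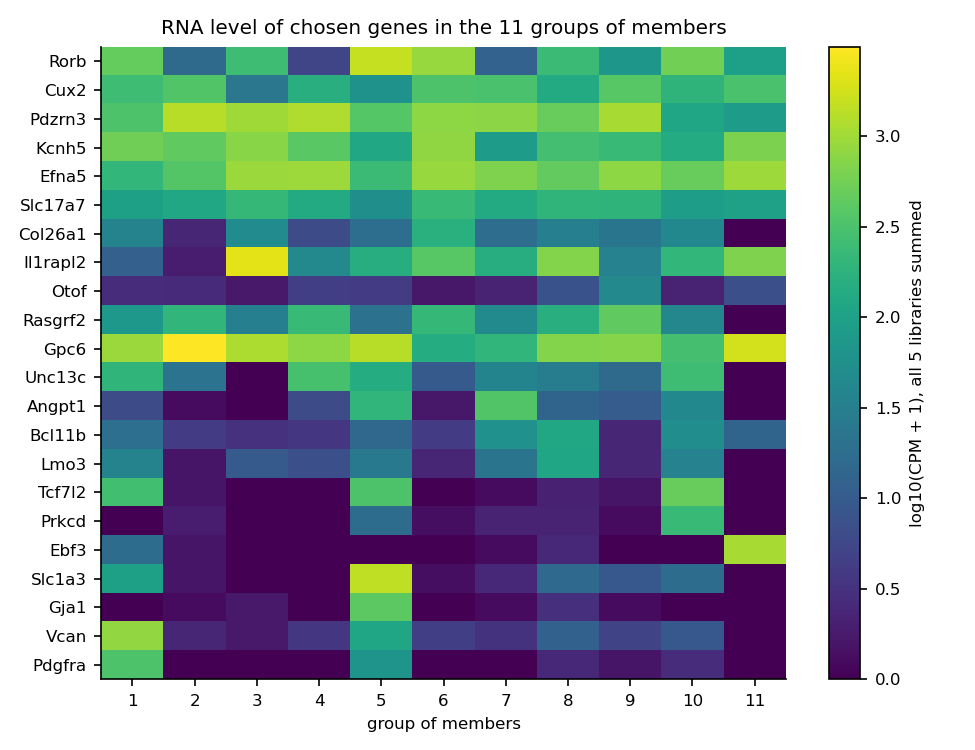
Heatmap of chosen genes (rows) in the 11 member groups (columns), coloured by log10 of CPM plus 1. Rorb is high in group 6 (897 CPM) but highest in group 5 (1535 CPM), where the astrocyte genes Slc1a3 and Gja1 also peak.

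The 5 genes of the rule varied less between libraries than between groups. Rorb stood at 239, 285, 265, 308 and 303 CPM in members, and in the single-sex groups at 226, 252, 287, 162 and 299.5 CPM. Between 41.7% and 51.7% of the members of a library held a Rorb UMI, and between 27.7% and 43.1% of the nuclei in its single-sex groups. Cux2 stood at 237, 225, 256, 262 and 236 CPM, and between 81.3% and 83.3% of the members held a UMI of it. The potassium channel gene Kcnh5 stood at 261, 377, 378, 307 and 345 CPM, with its lowest value in wild type, but in the single-sex groups at 424, 520, 526, 398 and 530 CPM, lowest in neuron MAGL-KO. Pdzrn3 ran from 701 to 817 CPM and Efna5 from 510 to 663 CPM, each with its highest value in 5xFAD. Summed over the 5 genes, members reached 2060 to 2370 CPM, against 438 CPM over all nuclei, 966 CPM in subicular-type and 388 CPM in deep-layer-type nuclei. These values chose the members and are no finding. The member score had a median of 1.53 and ran from 1.00 to 3.97. In the 160 nuclei that scored from 1 to 1.1, Rorb stood at 157 CPM, Cux2 at 153 CPM and Kcnh5 at 153 CPM. In the 151 nuclei from 0.9 to 1, just outside, the values were 148, 170 and 108 CPM. Of 2288 nuclei with a score of at least 1, 901 were not members: 630 had a subicular score at least as high, 62 a deep-layer score at least as high, and 209 an inhibitory score of 0.5 or more.

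Markers that the rule did not use gave the same mixed picture. Of 9 markers of excitatory neurons in general, 4 were above their level over all nuclei, with a sum of 1359 to 1497 CPM against 1289 CPM. Of 4 superficial entorhinal markers 1 was above, with a sum of 49.0 to 125 CPM against 170 CPM. Of 8 upper-layer IT markers, 6 were above their level over all nuclei, and their sum ran from 478 to 579 CPM in members, against 345 CPM over all nuclei, 300 in subicular-type and 233 in deep-layer-type nuclei. The sum is not particular to upper-layer neurons, since it reached 463 CPM in dentate granule nuclei and 405 CPM in astrocytes. The layer 4/5 IT sum (4 of 5 genes above all nuclei) ran from 143 to 171 CPM, against 116 CPM over all nuclei, 147 in subicular-type and 131 in deep-layer-type nuclei, so 3 of the 5 member libraries were below the subicular-type level. The sum of the layer 5 extratelencephalic markers, which include Bcl11b and Fezf2, was 65.3 to 83 CPM in members and 18.6 to 27.8 CPM in the single-sex groups, against 218 CPM over all nuclei. The layer 6 corticothalamic sum was 113 to 149 CPM, against 541 CPM in deep-layer-type nuclei. Markers of other cells were present. All 6 astrocyte markers exceeded their level over all nuclei in members, and their sum was 419, 402, 309, 554 and 269 CPM in members and 233 to 360 CPM in the single-sex groups, against 298 CPM over all nuclei and 2239 CPM in astrocytes. Most of that sum in the single-sex groups was Slc4a4 (274 CPM, against 268 CPM over all nuclei), while Gja1 (0.236 CPM), Aqp4 (0.315 CPM) and Slc1a3 (2.52 CPM) were far below their levels over all members (14.3, 12.6 and 57.5 CPM). The oligodendrocyte precursor sum was 27.8, 29.8, 39.9, 124 and 33.6 CPM in members, highest in neuron MAGL-KO, and 1.98 to 6.33 CPM in the single-sex groups. The inhibitory rule genes were low by construction, at 4.29 to 13.9 CPM, while other inhibitory markers, led by Adarb2 in group 10, summed to 480 to 995 CPM in members and 34.4 to 92.5 CPM in the single-sex groups.

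Open chromatin, which the rule did not use, set the members apart from both neighbouring classes. Cut sites were summed per library and class over regions merged from the deposited peaks, and tested with edgeR's quasi-likelihood test with the library as a block (5 libraries per class, Benjamini-Hochberg adjustment over 103361 regions). Against subicular-type nuclei, 3808 regions (3.68%) were more accessible in members and 2681 (2.59%) less. Against deep-layer-type nuclei, 11833 regions (11.4%) were more accessible and 8563 (8.28%) less. The count against subicular-type nuclei depended on the libraries used: without the 5xFAD library it was 1937 higher and 1217 lower, without global MAGL-KO 2197 and 1429, and without wild type or astrocyte MAGL-KO 2515 and 2488 higher, with 1713 and 1760 lower. In all, 2133 regions were higher than in both classes and 1136 lower than in both. Differences were rarest at promoters, where 1.96% of 13344 regions were higher and 0.667% lower against subicular-type nuclei, and most frequent between genes, where 4.32% of 39851 were higher and 3.33% lower. Levels are given as cut-site CPM, cut sites per 1000000. For the libraries of the 3 classes it was TMM-scaled over tested regions. For groups of members and other cell types it was unscaled over all 129601 regions present in all 5 libraries. Small differences between these scales are therefore not read. Since the 5 libraries are 5 genotypes, the spread given here is over genotypes as well as over libraries.

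The genes of the rule were among those with differing chromatin, most clearly against deep-layer-type nuclei. An exonic region of Cux2 (chr5:121916501-121917433, mm10) held 16.3, 15.5, 13.8, 13.1 and 17.0 cut-site CPM in members (15.2 ± 1.63, SD, n = 5 libraries). Deep-layer-type nuclei held 0.515, 0.298, 0.926, 2.09 and 0.707 (0.907 ± 0.699), a log2 difference of 4.01 (edgeR adjusted p = 4.8e-15). Subicular-type nuclei were between them, at 7.64 ± 1.77 (log2 difference 1.02, edgeR adjusted p = 0.00656). The members did not overlap either class there. Within the members the region was most open in group 6 (30.0) and group 9 (22.6), and it held 0 cut sites in the astrocyte-like group 5. Of the 17 tested regions over Cux2, 11 were higher than in deep-layer-type (11.4% over all regions) and 2 than in subicular-type nuclei (3.68%). The Cux2 promoter (chr5:122049716-122050692) held 28.2 ± 6.34 cut-site CPM in members and 16.1 ± 4.5 in deep-layer-type nuclei (0.82 on the log2 scale, edgeR adjusted p = 3.63e-05), with overlapping libraries. Against subicular-type nuclei (23.1) the promoter missed the threshold (log2 difference 0.28, edgeR adjusted p = 0.304).

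The Rorb promoter (chr19:19110823-19111695) held 19.4, 20.0, 22.4, 18.0 and 18.6 cut-site CPM in members (19.7 ± 1.72, SD, n = 5). In subicular-type nuclei it held 11.2, 11.7, 11.1, 9.73 and 11.8 (11.1 ± 0.835), below every member library (log2 difference 0.82, edgeR adjusted p = 0.00197). Against deep-layer-type nuclei (15.9 ± 3.01) the difference of 0.32 missed the threshold (edgeR adjusted p = 0.215). Apart from the 12 nuclei of group 11 (56.0), the promoter was most open in the glial groups, at 53.8 in group 1 and 41.2 in group 5, against 29.4 in group 6, 12.7 in group 9 and 6.48 in group 2. Astrocytes held 49.8 there, and the single-sex groups together 16.4. The Cux2 promoter was also open in glia, at 50.4 in group 5, 34.8 in astrocytes and 48.6 in oligodendrocytes, against 54.0 in group 4, 37.9 in group 6 and 29.5 in group 9. The glial share of the member value at Rorb was not tested. Of the 5 tested regions over Rorb, 2 were lower in members than in deep-layer-type nuclei (8.28% over all regions), both intronic. In the stronger one (chr19:19019097-19020039) members held 7.62, 5.85, 5.61, 3.89 and 4.85 cut-site CPM, against a mean of 12 (log2 difference -1.10, edgeR adjusted p = 0.000698).

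The promoters of both genes are shown because they carry the 2 results above: the 250 bases before the RefSeq start, 5′ to 3′ on the gene's strand, from RefSeq on GRCm38.p6, the assembly of mm10. Rorb is at chr19:19111197-19111446 and Cux2 at chr5:122049852-122050101, both on the minus strand. Neither window held any of 8 motifs searched on both strands, and none of their letters is in capitals. The Rorb window has a GC content of 66.0% and the Cux2 window of 80.0%.
Rorb: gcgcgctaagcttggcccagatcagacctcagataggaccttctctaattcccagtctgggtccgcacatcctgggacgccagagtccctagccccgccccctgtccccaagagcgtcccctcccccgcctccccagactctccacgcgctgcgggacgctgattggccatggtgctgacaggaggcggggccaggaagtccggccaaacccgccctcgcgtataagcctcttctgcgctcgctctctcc
Cux2: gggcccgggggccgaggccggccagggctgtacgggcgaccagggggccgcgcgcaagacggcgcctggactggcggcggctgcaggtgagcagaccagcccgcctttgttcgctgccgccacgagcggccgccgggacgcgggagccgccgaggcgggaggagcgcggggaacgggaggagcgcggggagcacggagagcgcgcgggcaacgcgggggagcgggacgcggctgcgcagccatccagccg

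At Pdzrn3, an intronic region (chr6:101251879-101252868) differed from both classes, and held 14.9, 14.3, 14.2, 11.7 and 13.2 cut-site CPM in members (13.7 ± 1.28, SD, n = 5). It held 2.15 ± 0.948 in subicular-type nuclei (log2 difference 2.65, edgeR adjusted p = 4.18e-08) and 2.25 ± 0.981 in deep-layer-type nuclei (2.63, edgeR adjusted p = 1.63e-09), with no overlap. Of 24 tested regions over Pdzrn3, 11 were higher than in deep-layer-type (11.4% over all regions) and 2 than in subicular-type nuclei (3.68%). At Kcnh5, a region at chr12:75076858-75077814 held 6.24, 13.7, 7.48, 17.5 and 15.6 in members (12.1 ± 5.00), against 2.97 ± 0.824 in deep-layer-type nuclei (1.97, edgeR adjusted p = 3.13e-07). The spread there was wide, with wild type and astrocyte MAGL-KO lowest. Of 8 tested regions over Kcnh5, 3 were higher than in deep-layer-type nuclei, against the same 11.4%. Against subicular-type nuclei edgeR called 0 of the 8, and 1 had an unadjusted p under 0.05. At Efna5, a region at chr17:62775296-62776367 held 6.66 ± 1.33 in members, against 1.30 ± 0.52 in deep-layer-type nuclei (2.29, edgeR adjusted p = 3.01e-06). Of 14 tested regions over Efna5, 7 were higher than in deep-layer-type nuclei, and 2 were higher and 1 lower (2.59% over all regions) than in subicular-type nuclei. An intron of Efna5 (chr17:62659383-62660477) was higher than in subicular-type nuclei (9.10 ± 3.76 against 3.38), but the astrocyte-like group 5 held 53.2 there.

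A few further genes, chosen with earlier results known, are described here. Cux1, a homologue of Cux2 in upper layers, had 10 of 23 regions higher than in deep-layer-type nuclei, Rora 9 of 37, and Mef2c, an activity-dependent factor, 4 of 18 (11.4% over all regions). Against subicular-type nuclei 1, 3 and 2 of them were higher (3.68% over all regions). Some genes of the other classes had regions of lower accessibility, and others did not. All given here but Bcl11b are rule genes, whose RNA chose those classes. Against subicular-type nuclei, Vwc2l had 0 of 6 regions lower and Atp10b 0 of 3. Npsr1 had 2 higher and 1 lower of 11, and Bmper 1 higher and 1 lower of 15. Against deep-layer-type nuclei, Rai14 had 0 of 10 lower, Sulf1 2 of 6 and Cobll1 2 of 8. Tshz2 had 7 of 24 regions lower than in subicular-type nuclei (2.59% over all regions), including chr2:169757737-169758665 with 5.10 ± 1.78 against 15.6 ± 1.46 (-1.68, edgeR adjusted p = 1.2e-05). The Foxp2 promoter (chr6:14900503-14901282) held 10.3 ± 1.71, against 21.2 ± 0.891 in deep-layer-type nuclei (-1.05, edgeR adjusted p = 1.57e-05). Hs3st4 had 15 of 23 regions lower than in deep-layer-type nuclei (8.28% over all regions). Bcl11b had 6 of 13 lower, including chr12:107969577-107970499 with 3.04 ± 1.80 against 10.2 ± 5.04 (-1.69, edgeR adjusted p = 2.4e-05).

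**Figure D3:**
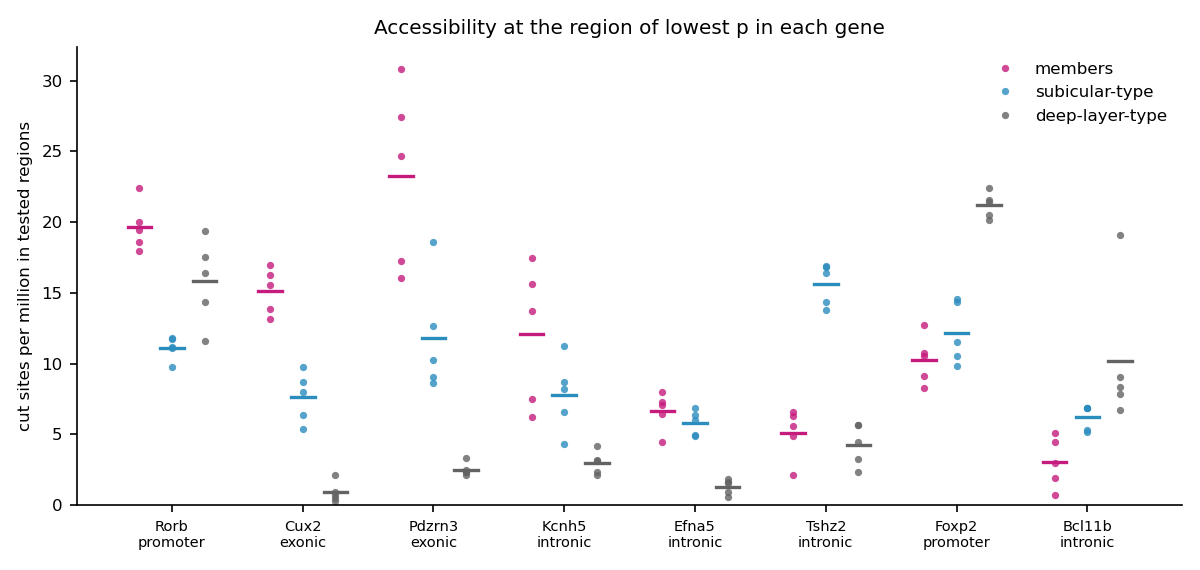
Cut-site CPM (y axis) at the lowest-p region of 8 genes, with 1 point per library for members, subicular-type and deep-layer-type nuclei and lines at the means. Members lie above both classes at Cux2 (13.1 to 17.0 cut-site CPM) and below subicular-type nuclei at Tshz2.

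Of the regions with the lowest p-values against subicular-type nuclei, several were highest in particular groups. For a region outside the gene it is named by, the distance is to the closest gene start. An intron of Col26a1 (chr5:136784262-136785213) held 17.7, 20.0, 15.7, 15.5 and 18.9 cut-site CPM in members, against 0.421, 0.489, 1.44, 0 and 1.5 in subicular-type nuclei (log2 difference 4.48, edgeR adjusted p = 2.56e-14). It held 60.0 in group 6, 33.0 in group 7, 26.8 in group 3, 21.4 in group 10, 18.9 in group 9 and 1.08 in group 2. A region 11739 bases from Dusp6, a phosphatase induced by ERK signalling (chr10:99250552-99251492), held 14.9 ± 2.69 against 3.18 ± 0.878 (2.24, edgeR adjusted p = 9.21e-09), with 44.1 in group 6, 30.3 in group 9 and 1.62 in group 2. An intergenic region (chr3:21045573-21046584), 678396 bases from the closest start, that of Agtr1b, held 9.79 ± 0.667 against 0.834 ± 0.338 (3.5, edgeR adjusted p = 2.16e-08) and was highest in group 9 (33.6). Another (chr12:95315027-95315986), 376240 bases from Flrt2, held 16 ± 3.46 against 2.72 ± 1.59 (2.54, edgeR adjusted p = 9.58e-10). Others followed the glial nuclei instead. The Sox1 promoter (chr8:12394981-12395952) held 30.5, 14.9, 15.0, 46.2 and 8.08 in members, with 173 in group 5 and 3.18 in the single-sex groups. A region 45425 bases from Mfge8 (chr7:79194485-79195293) held 166 in group 5 and 4.56 in the single-sex groups. The subicular-type means at these sites were 3.13 and 2.95. Lower in members were an intron of Skap1 (chr11:96500802-96501725; 5.64 ± 1.04 against 18.7 ± 3.20) and an intron of Crybg1 (chr10:44084417-44085337; 9.47 ± 1.68 against 25.4 ± 0.573), although group 2 held 45.3 at the latter. An intron of Spag16, 24756 bases from Vwc2l (chr1:70700093-70700959; 12.5 ± 2.81 against 31.4 ± 6.93) was likewise high in group 2, at 42.1.

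The Thy1 promoter separated the wild type library from the other 4. Its region (chr9:44042860-44043763) held 23.6 cut-site CPM in wild type members and 205, 205, 212 and 222 in the 4 libraries of 5xFAD background. In subicular-type nuclei the values were 33.1 in wild type and 330, 350, 317 and 365 in the others. An exonic Thy1 region (chr9:44048566-44049427) held 15.2 in wild type members and 216, 216, 255 and 322 in the other 4. The transgenes of 5xFAD contain the Thy1 promoter, and reads of a transgene copy and of the mouse gene cannot be told apart here. Members were below subicular-type nuclei at the promoter region (log2 difference -0.67, edgeR adjusted p = 2.38e-11) and at the exonic region (-0.49, edgeR adjusted p = 4.24e-07), and in wild type as well as in the other 4 libraries. Thy1 RNA was also lowest in wild type, at 48.9, 108, 132, 151 and 107 CPM in members. In the single-sex groups it was 54.9, 87.05, 110, 150.4 and 80.8 CPM. App RNA was closer, at 528, 569, 581, 626 and 602 CPM.

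Against deep-layer-type nuclei, regions again divided the groups. At a distance of 138302 bases from Cpne8 (chr15:90817734-90818862) members held 11.1, 20.0, 19.4, 17.0 and 14.3 cut-site CPM and deep-layer-type nuclei 0.541 ± 0.473 (log2 difference 4.89, edgeR adjusted p = 3.98e-17). It was open in group 6 (42.2) and group 2 (32.9) but not in group 9 (3.69). A region 4752 bases from Zmpste24 (chr4:121102993-121104004; 17.4 against 0.922) showed another division, with 60.6 in group 6, 49.2 in group 9 and 4.86 in group 2. An intron of Plxdc1 (chr11:97944646-97945656) held 28.8, 36.1, 31.8, 45.2 and 29.1 in members, against 6.51 ± 2.53 (2.38, edgeR adjusted p = 3.63e-18). An intergenic region (chr13:101540508-101541448), 226769 bases from Pik3r1, held 30.1 ± 7.42 against 5.00 (2.55, edgeR adjusted p = 5.56e-18). Lower in members were an exon of Cmya5 (chr13:93091506-93092628; 2.52 against 25.4), a region 290694 bases from Dnajb9 (chr12:43918675-43919632; 0.825 against 16.7 ± 3.31) and an intron of Kl (chr5:150961359-150962273; 3.49 ± 1.33 against 24.1 ± 3.21). Grouped by the closest gene start, at any distance, regions higher than in both classes were most frequent for Cbln4, a synaptic organiser (6 of 22 regions), Nrxn3 (6 of 66), Rnf144a (6 of 47), Dusp6 (5 of 24), Galc (5 of 50) and Pdzrn3 (5 of 46), followed with 4 each by Pou3f2, an upper-layer factor (of 11), Max (of 18), Gm49355 (of 20), Maml3 (of 27), Gfra2 (of 30) and the BDNF receptor gene Ntrk2 (of 37), out of the 2133 such regions among all 103361. Regions lower than in both classes were most frequent for Vrk1 (8 of 48), Cdh11 (5 of 58) and Grik3 (5 of 32), out of 1136 such regions. Cbln4 also had 1 lower region, and Cdh11 had 1 higher region. The Pou3f2 promoter held 42.1 ± 10.8 cut-site CPM in members (SD, n = 5), 17.2 ± 2.97 in subicular-type and 10.2 ± 3.12 in deep-layer-type nuclei. It held 37.6 in the single-sex groups and 149.8 in the astrocyte-like group 5.

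A search of promoter windows gave a description of their letters. Of 32851 RefSeq windows from 250 bases before to 50 after a start, 13038 lay inside tested regions, and 8 motifs were sought on both strands. The POU octamer ATGCAAAT was in 3.14% (9 windows) of the 287 windows higher than in subicular-type nuclei, against 1.43% of the windows in tested regions. It was in 1.03% of the windows lower than in subicular-type nuclei. Against deep-layer-type nuclei it was in 2.49% of the higher and 1.79% of the lower windows. The AP-1 site TGACTCA was in 7.73% of the 724 windows higher than in deep-layer-type nuclei and 4.02% of the 448 lower ones, against 3.51%. Against subicular-type nuclei it went the other way, in 2.79% of the higher windows and 6.19% of the 97 lower ones. The E-box CAGATG was in 15.2% of those 724 and in 19.0% of those 448, against 11.7%. Against subicular-type nuclei it was in 9.76% of the higher and 19.6% of the lower windows. The ROR core TAGGTCA was in 1.05% of windows higher than in subicular-type and 1.93% of those higher than in deep-layer-type nuclei, against 1.34%. The CUX site ATCGAT was in 0.348% and 0.276%, against 0.844%. The remaining 3 motifs (MEF2, forkhead and T-box) stood at 0.348%, 2.79% and 0.697% of the windows higher than in subicular-type nuclei, against 0.169%, 2.32% and 0.675%. They stood at 0.414%, 3.31% and 1.80% of the windows higher than in deep-layer-type nuclei, and at 0%, 0.893% and 0.670% of the lower ones. Several of these shares rest on few windows, such as 3 with the MEF2 and 13 with the T-box string. Over all 32851 windows the octamer was in 1.74% and the AP-1 site in 5.20%. A match is a string of letters and was not tested as a bound site.

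The windows of 3 genes higher than in both classes and with a match are shown with the match in capitals, again the 250 bases before the start from RefSeq on GRCm38.p6. The Tnc window (chr4:64047016-64047265, minus strand) holds the octamer, and its region held 25.4 ± 6.78 cut-site CPM in members (SD, n = 5), 15.0 ± 3.12 in subicular-type and 9.68 ± 2.06 in deep-layer-type nuclei. Tnc encodes the matrix protein tenascin C. The region was most open in groups 3 (53.5), 9 (45.5) and 6 (42.8). The Dclk1 window (chr3:55461478-55461727, plus strand) holds the AP-1 site on the reverse strand, and its region held 46.5 ± 7.99, 32.3 ± 4.78 and 33.3 ± 3.39 in the same order. Dclk1 encodes a microtubule-associated kinase. The Rcan1 window (chr16:92400079-92400328, minus strand) lies before an internal start of this calcineurin inhibitor gene, holds the AP-1 site, and its region held 18.5 ± 3.54, 11.8 ± 1.13 and 10.8 ± 3.39. A further Rcan1 window (chr16:92466170-92466419) lay in a more open region that was called against neither class, at 72.2, 74.6 and 74.4.
Tnc: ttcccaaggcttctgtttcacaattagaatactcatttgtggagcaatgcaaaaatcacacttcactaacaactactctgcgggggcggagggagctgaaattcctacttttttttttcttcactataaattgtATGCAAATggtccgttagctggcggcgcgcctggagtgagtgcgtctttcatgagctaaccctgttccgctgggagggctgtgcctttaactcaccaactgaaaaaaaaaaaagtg
Dclk1: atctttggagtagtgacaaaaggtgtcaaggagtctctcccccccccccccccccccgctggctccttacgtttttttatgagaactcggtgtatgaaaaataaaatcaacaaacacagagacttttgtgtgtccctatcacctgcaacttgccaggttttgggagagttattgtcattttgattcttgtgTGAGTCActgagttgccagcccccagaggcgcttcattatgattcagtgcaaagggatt
Rcan1: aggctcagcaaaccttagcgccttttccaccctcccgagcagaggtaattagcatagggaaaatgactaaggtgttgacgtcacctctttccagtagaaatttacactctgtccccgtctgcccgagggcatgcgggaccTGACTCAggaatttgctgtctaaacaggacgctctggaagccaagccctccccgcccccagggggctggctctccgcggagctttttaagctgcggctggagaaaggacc

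The RNA levels of members and the neighbouring classes are given as a description, since RNA chose the nuclei. The genes that led when ranked by the smallest ratio to the 2 classes over the libraries were Pde7b, Zfp804b, Chn2, Kitl and Ptn. Pde7b, a cAMP phosphodiesterase, stood at 330 CPM in members, 75.4 in subicular-type and 76.6 in deep-layer-type nuclei, but at 390 CPM in dentate granule nuclei. Zfp804b stood at 793, 143 and 209 CPM, and at 724 CPM in dentate granule nuclei. Ptn, a secreted growth factor gene, stood at 181, 76.8 and 65.3 CPM, and was higher in astrocytes (389 CPM) and oligodendrocytes (426 CPM). Others of the 20 leading genes were picked with earlier results known. Rora, which is related to Rorb, stood at 1471, 801 and 698 CPM, Mef2c at 1039, 551 and 207 CPM, and Cux1 at 248, 132 and 70.2 CPM. The channel gene Kcnh1, of the same family as Kcnh5, stood at 197, 88.1 and 101 CPM. Ntng1 (818 CPM in members) and Trps1 (563 CPM) were also among the 20 leading genes but stood at 185 and 126 CPM in the single-sex groups, so their excess lay in the other groups. Trps1 stood at 2134 CPM in CA3 nuclei. Lower in members were the sarcoglycan gene Sgcd (473, 1829 and 1601 CPM), Cntnap4 (48.9, 177 and 468 CPM) and the kainate receptor gene Grik3 (68.1, 152 and 336 CPM). Bcl11b and Lmo3, a pair of factors of deep-layer and hippocampal neurons, were at 49.5 and 40.4 CPM over all members and 2.60 and 2.36 CPM in the single-sex groups, against 127 and 90.6 CPM in subicular-type and 181 and 198 CPM in deep-layer-type nuclei.

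In the comparisons between libraries, a gene counted as past the threshold at a 2-fold ratio of summed CPM, among genes with at least 100 UMIs over both libraries. Intervals are exact conditional 95% intervals of the ratio and cover counting error only. All 3 MAGL-KO comparisons use the same 5xFAD library, so they share its deviations. The median gene was 0.12 above 0 on the log2 scale in astrocyte and in neuron MAGL-KO against 5xFAD, -0.01 in 5xFAD against wild type and 0.01 in global MAGL-KO. Ratios of the first pair are to be read against that shift.

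Between 5xFAD and wild type, the leading higher genes over all members followed group 10, while the single-sex groups showed few differences past 2-fold. Over all members 43 genes (0.467%) were higher and 27 (0.293%) lower of 9205. That split was not stable: it was 38 and 72 without nuclei of both sexes, 33 and 41 at the higher score cut-off and 27 and 158 as a mean over nuclei. Synpo2, an actin-binding protein gene, stood at 12.9, 120, 20.8, 10.5 and 89.7 CPM (5xFAD against wild type 3.21 on the log2 scale, interval 2.84 to 3.62). Lef1 stood at 14.5, 69.2, 12.8, 2.03 and 39.0 CPM. Adamts19, a metalloprotease gene, stood at 7.89, 41.1, 5.71, 2.37 and 27.2 CPM, and Tafa4 at 2.85, 18.1, 1.6, 4.39 and 16.3 CPM. All 4 were high in the 5xFAD and global MAGL-KO libraries alone, the libraries that held 47 of the 50 nuclei of group 10. In the single-sex groups these genes were nearly absent, with 0 UMIs of Synpo2 in wild type and 1 in 5xFAD. Tafa4 (5 UMIs in each) and Adamts19 (9 and 13 UMIs) gave log2 ratios of -1.63 (interval -3.75 to 0.49) and -1.10 (-2.44 to 0.31) there, so the difference over all members was not seen in those groups. Lower in 5xFAD over all members was the adhesion receptor gene Cd44, at 33.5, 10.3, 14.4, 10.8 and 12.5 CPM. Its log2 difference was -1.70 over members, but in the single-sex groups wild type held 0 of its UMIs and 5xFAD 5. Other lower genes were also lower there: Hgf, a growth factor gene, stood at 34.0, 11.9, 25.8, 14.5 and 19.5 CPM over members (-1.51, and -1.46 in the single-sex groups), and Qrfpr, a neuropeptide receptor gene, at 41.8, 15.2, 19.2, 17.2 and 12.2 CPM (-1.46 and -1.26). The zinc finger gene Zfp951 stood at 13.6, 5.04, 19.4, 13.5 and 6.75 CPM (-1.43, and -1.42 in the single-sex groups).

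Within the single-sex groups 15 genes (0.243%) were higher and 15 (0.243%) lower of 6169 in 5xFAD against wild type. Npnt, the matrix protein nephronectin, stood at 9.25, 26.3, 16.3, 8.77 and 20.2 CPM (1.51, interval 0.71 to 2.42), and it was among the genes of group 4, which held 43 nuclei in 5xFAD and 6 in wild type. The phosphodiesterase gene Pde3a stood at 11.9, 28.7, 6.33, 13.5 and 6.73 CPM (1.27, interval 0.55 to 2.07), and was lower again in all MAGL-KO libraries, although 1 nucleus held 38.9% of its 18 UMIs in wild type. Lower in 5xFAD were Cdkl4 (33.0, 14.5, 23.1, 31.0 and 11.3 CPM), Adamts16 (46.3, 20.5, 31.2, 45.9 and 24.1 CPM) and Rbbp8 (39.7, 17.8, 19.9, 32.4 and 18.1 CPM), a DNA end resection factor. Parm1 had the lowest ratio (48.2, 13.05, 28.5, 19.6 and 32.3 CPM; -1.89), but 1 nucleus held 42.5% of its wild type UMIs.

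Lists of signalling genes showed small median shifts in 5xFAD, while the genes at their ends differed more. Of the 10 genes measured on the 2-AG and endocannabinoid list, 8 were below 0 and 5 had an interval below 0 (over all genes 51.3% and 10.7%), with a median of -0.13. The cannabinoid receptor gene Cnr1 stood at 42.1, 27.8, 45.2, 46.3 and 47.1 CPM (-0.60, interval -0.87 to -0.32), lowest in 5xFAD. The single-sex groups gave 54.9, 29.7, 40.2, 41.1 and 41.5 CPM, again lowest in 5xFAD. Against 5xFAD, Cnr1 was higher by 0.70 (0.43 to 0.97), 0.74 (0.43 to 1.04) and 0.76 (0.52 to 1.00) in astrocyte, neuron and global MAGL-KO, 3 ratios that share the low 5xFAD value. Of the enzymes that make 2-AG, Dagla stood at 53.2, 61.0, 51.6, 58.1 and 61.6 CPM and Daglb at 31.6, 28.9, 35.2, 29.8 and 28.3 CPM. Faah, which breaks down anandamide, stood at 67.5, 69.1, 63.9, 65.6 and 67.8 CPM. Of the Eph receptor and ephrin genes, whose list holds the rule gene Efna5's receptors, 8 of 10 were below 0 and 5 had an interval below 0, against the same shares over all genes, with Ephb1 lowest (131, 93.1, 105, 98.4 and 80.7 CPM; -0.50). Among glutamate receptor genes, Grin3a stood at 97.7, 58.8, 85.4, 66.3 and 65.7 CPM (-0.73), with 25.8, 7.27, 11.3, 18.2 and 5.67 CPM in the single-sex groups. Of the GABA-A receptor genes, Gabra5, of extrasynaptic receptors, stood at 151, 79.3, 97.7, 78.8 and 77.0 CPM (-0.93, and -0.52 in the single-sex groups). Gabrd, also extrasynaptic, went the other way, at 15.6, 29.1, 28.5, 22.6 and 25.8 CPM (0.90 and 0.85). Both were thus set apart by the wild type library, with the 4 5xFAD-background libraries close together. The potassium channel list had 19 of 22 genes above 0 (over all genes 48.7%) with a median of 0.15, which was 0.04 in the single-sex groups. Its highest member Kcnc2 (264, 525, 254, 115 and 534 CPM; 0.99) stood at 0.03 in the single-sex groups and at 3254 CPM in group 10. The layer factor, AMPA and NMDA, kainate and metabotropic, and GABA-A lists had medians of 0.04, -0.06, 0.01 and -0.05. In the same order, 5 of 26, 5 of 9, 3 of 12 and 5 of 12 genes had an interval below 0 (10.7% over all genes). Intervals above 0 numbered 7, 1, 3 and 4 (962 of 9205 over all genes).

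The library labelled astrocyte MAGL-KO had less activity-regulated RNA and more RNA of mitochondrial and ribosomal proteins than 5xFAD. The immediate early list, of genes induced by neuronal firing, had 13 of 14 measured genes below 0 and 11 with an interval below 0 (over all genes 33.8% and 10.9%), with a median of -0.66. All 12 genes measured in the single-sex groups were below 0 and 11 had an interval below 0 (over all genes 36.4% and 10.6%), with a median of -0.88. Homer1, a postsynaptic scaffold whose short form is activity-induced, stood at 1132, 1002, 483, 530 and 970 CPM (astrocyte MAGL-KO against 5xFAD -1.05, interval -1.12 to -0.99). The single-sex groups held 1412, 1435, 552, 643 and 1518 CPM. Fos stood at 23.8, 13.05, 3.17, 6.74 and 11 CPM in the single-sex groups and at 12.5, 9.34, 3.20, 5.75 and 6.60 CPM over members, where the log2 difference was -1.55 (-2.48 to -0.72). The nuclear receptor gene Nr4a3 stood at 85.4, 61.0, 24.9, 21.3 and 47.6 CPM (-1.29, interval -1.6 to -0.99). The neurotrophin gene Bdnf stood at 116, 104, 49.3, 69.5 and 116 CPM in the single-sex groups, and Arc at 43.0, 48.5, 27.1, 32.4 and 48.6 CPM. For Homer1, Bdnf and Arc the astrocyte and neuron MAGL-KO libraries were the lowest, while wild type, 5xFAD and global MAGL-KO lay close together. Inhba, an activin subunit gene, went against the list, at 11, 9.77, 15.8, 21.6 and 12.2 CPM (0.69, interval 0.22 to 1.16).

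The summed immediate early level was 1728, 1481, 806, 911 and 1422 CPM in members and 2230, 2115, 931, 1069 and 2150 CPM in the single-sex groups. Homer1 alone, at the levels given above, made up most of each of these sums. Sums by group thus do not show how far the other genes of the list differed in each group. The library labelled astrocyte MAGL-KO held the lowest sum of the 5 in each of groups 2, 3, 4, 6, 7 and 9, and neuron MAGL-KO did in group 8 (740 against 765 CPM). Group 4 held only 3 nuclei in neuron MAGL-KO. In group 6 the sum was 4275, 3676, 1593, 2479 and 3721 CPM, and in group 9 it was 2721, 2779, 1034, 1069 and 2394 CPM. In group 2, which starts from a lower level, it was 916, 917, 499, 655 and 986 CPM. Group 2 held 27, 69, 63, 37 and 45 nuclei. Groups 6 and 9 held 15, 62, 42, 15 and 58, and 28, 74, 33, 16 and 55. The share of group 2 among members was 24.4% in astrocyte and 24.7% in neuron MAGL-KO, against 12.9% to 16.2% elsewhere. The part of this make-up in the list's medians over the single-sex groups of both libraries was not tested. Egr3 and Homer1 were among the leading genes of group 6, so its size and its level are not independent. In the other classes the list's median in astrocyte MAGL-KO against 5xFAD, less the median of all genes, was -0.18 in subicular-type, -0.50 in deep-layer-type, -0.45 in CA1 and 0.40 in dentate granule nuclei, against -0.78 in members and -0.98 in the single-sex groups. The difference between classes was not tested. Median UMIs per member were lowest in this library, and the part of depth in the result was not tested.

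**Figure D4:**
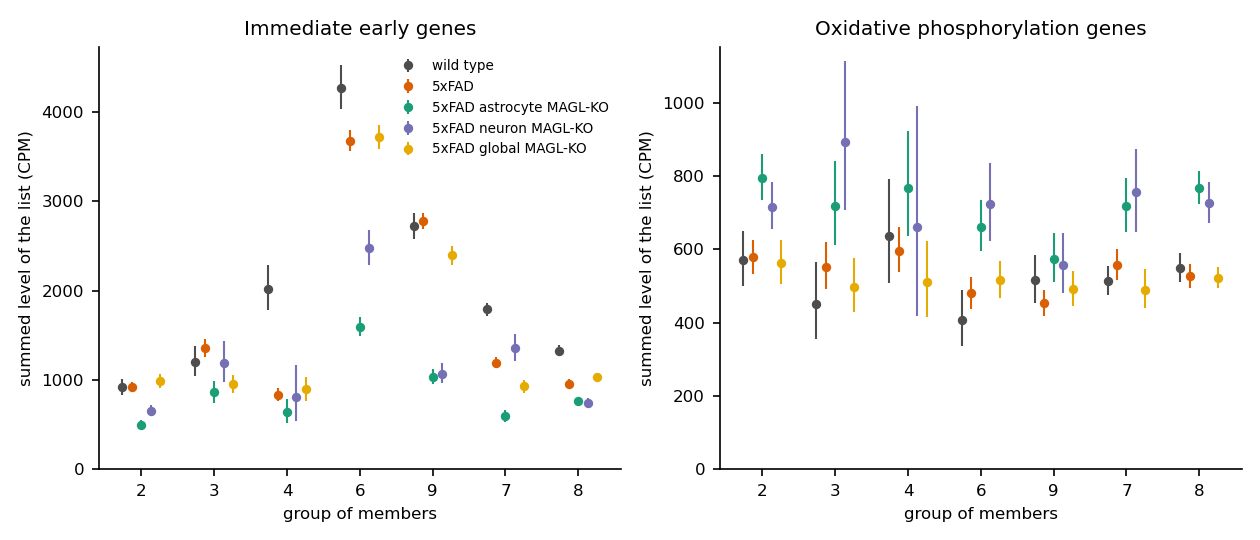
Summed CPM (y axis) of the immediate early list and of the oxidative phosphorylation list in member groups 2, 3, 4, 6, 7, 8 and 9, with 1 point per library and 95% Poisson intervals. Immediate early RNA is highest in groups 6 and 9 and lower there in the astrocyte and neuron MAGL-KO libraries (1593 and 2479 CPM in group 6) than in the other 3. Homer1 makes up most of the immediate early sum over members.

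Oxidative phosphorylation genes went the other way in astrocyte MAGL-KO. All 23 measured genes were above 0 and 17 had an interval above 0 (over all genes 66.2% and 25.8%), with a median of 0.55. All 16 genes measured in the single-sex groups were above 0 and 9 had an interval above 0 (over all genes 63.6% and 21%), with a median of 0.49. Atp5j, a subunit of ATP synthase, stood at 16.4, 15.1, 25.8, 22.3 and 12.9 CPM (0.77, interval 0.40 to 1.14), and Ndufb9 of complex I at 14.7, 14.7, 24.7, 19.3 and 15.0 CPM. The summed level in group 6 was 407, 480, 662, 723 and 515 CPM, and in group 2 it was 572, 579, 795, 717 and 563 CPM. Ribosomal protein genes had 74 of 75 above 0 and 60 with an interval above 0 (over all genes 66.2% and 25.8%), with a median of 0.59 (0.67 in the single-sex groups). These shifts were not limited to the members: in subicular-type, deep-layer-type, CA1 and dentate granule nuclei the medians ran from 0.51 to 0.60 for oxidative phosphorylation and from 0.55 to 0.67 for ribosomal proteins.

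Over all members 135 genes (1.44%) were higher and 64 (0.684%) lower of 9351 in astrocyte MAGL-KO against 5xFAD. With median-of-ratios size factors, which moved the median gene from 0.12 to -0.06, the split turned to 70 higher and 98 lower, and in Y nuclei it was 48 and 65. Zfp951, low in 5xFAD, was among the higher genes (1.94, interval 1.41 to 2.49), and the serotonin receptor gene Htr2a stood at 10.3, 6.23, 19.4, 8.11 and 7.19 CPM (1.64). The lowest ratios over all members again belonged to genes of group 10, such as Tafa4 (-3.5), Adamts19 (-2.85), Prkcd (-2.75; 5.48, 26.2, 3.88, 1.69 and 18.8 CPM) and Plekhg1 (-2.23; 49.5, 134, 28.8, 22.6 and 87.8 CPM). Tnc, whose promoter is shown above, stood at 3.29, 12.6, 2.51, 8.79 and 4.55 CPM (-2.32).

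In the single-sex groups 74 genes (1.1%) were higher and 36 (0.536%) lower of 6711, and several were alike in every MAGL-KO library. AC149090.1 stood at 256, 208, 619, 588 and 444.5 CPM (1.58, 1.5 and 1.1 against 5xFAD in astrocyte, neuron and global MAGL-KO). Teddm2 stood at 15.9, 13.5, 36.6, 34.4 and 28.7 CPM (1.44 in astrocyte and 1.09 in global MAGL-KO). Cfap54, of the ciliary axoneme, went down in the same way, at 171, 139.9, 35.3, 34.4 and 52.8 CPM (-1.99, -2.02 and -1.41). For these 3 genes wild type and 5xFAD lay together and the 3 MAGL-KO libraries apart from them. The first and the last also differed in other classes: in astrocyte MAGL-KO against 5xFAD, AC149090.1 differed by 1.40 to 1.52 and Cfap54 by -1.38 to -2.20 in subicular-type, deep-layer-type, CA1 and dentate granule nuclei. Teddm2 differed there by 0.64, 0.35, 0.48 and 1.21. Nr4a2, a nuclear receptor of the immediate early list, stood at 59.5, 46.8, 11.3, 14.8 and 28.0 CPM (-2.05, interval -2.71 to -1.45). It differed by -0.74 over all members, with 0.02 in subicular-type and -0.21 in deep-layer-type nuclei. Tiparp stood at 119, 102, 33.5, 53.3 and 97.5 CPM (-1.61). The astrocyte gene Hepacam stood at 23.1, 23.5, 4.97, 2.70 and 1.42 CPM, where the last 3 libraries held 11, 4 and 4 UMIs. Other astrocyte genes were low there: Gja1 held 0, 1, 0, 0 and 2 UMIs, Aqp4 stood at 0 to 1.32 CPM and Slc1a3 at 1.06 to 9.44 CPM.

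The medians of the receptor and channel lists in astrocyte MAGL-KO were 0.04 for AMPA and NMDA receptors, -0.01 for kainate and metabotropic receptors, 0.06 for GABA-A receptors, -0.07 for potassium channels, 0.10 for Eph receptors and ephrins and 0.08 for layer factors, against 0.12 for all genes. Members of a list went both ways: 10 of 22 potassium channel genes had an interval below 0 (10.9% over all genes) and 3 above it (25.8%), and that list and the AMPA and NMDA list each held 1 gene at least 2-fold lower. These were Kcnc2, which was high in group 10, and Grin2c, which held no UMIs in the single-sex groups of either library. In those groups the potassium channel median was 0.01, against 0.10 for all genes. Pou3f1 was the highest layer factor (10.3, 10.1, 18.5, 15.9 and 8.95 CPM; 0.87, interval 0.43 to 1.32). The glial and neuronal factor Nfia was the lowest (220, 201, 110, 289 and 151 CPM; -0.87), but it differed by -0.27 in the single-sex groups. Those leave out both the glial groups and the deep groups rich in nuclei of both sexes, and the part of each in the difference was not tested. Epha7 stood at 426, 368, 254, 292 and 394 CPM (-0.54, and -0.87 in the single-sex groups). Kcnd2, of A-type potassium current, was -0.39 over members and -0.38 in the single-sex groups, at 3557, 3905, 2986, 3063 and 3257 CPM over members.

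The library labelled neuron MAGL-KO shared the direction of several of these lists, and over all members it carried more glial RNA than 5xFAD. The 2 comparisons share the 5xFAD library. Over all members 262 genes (2.91%) were higher and 44 (0.489%) lower of 8992. The split was 126 and 82 with size factors, 191 and 36 in Xist nuclei, and 60 and 108 in Y nuclei. Bcas1 stood at 7.23, 7.08, 8.67, 64.2 and 16.6 CPM (3.18, interval 2.77 to 3.61) and Pdgfra at 7.45, 6.01, 7.99, 33.5 and 5.28 CPM (2.48), both genes of the oligodendrocyte lineage. Ptgds stood at 9.20, 11.7, 35.2, 99.7 and 29.8 CPM (3.09). In this library the oligodendrocyte-precursor-like group 1 held 16 of the 150 members, the highest share of the 5 libraries, and in the single-sex groups Ptgds differed by -0.04 (interval -1.11 to 0.92). The part of those nuclei in the values over all members was not tested.

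In the single-sex groups 104 genes (1.65%) were higher and 46 (0.731%) lower of 6295 in neuron MAGL-KO against 5xFAD, over only 83 nuclei. Spock1, a proteoglycan gene, stood at 397, 469.5, 465, 154 and 466 CPM (-1.60, interval -1.81 to -1.41), low in this library alone. The difference was -1.21 in Xist nuclei and -4.37 in Y nuclei, of which this library held only 21 in these groups. Spock1 was also lower in subicular-type (-1.96) and deep-layer-type nuclei (-1.43), with -0.62 in CA1 and 0.32 in dentate granule nuclei. Cdh13 stood at 119.6, 54.8, 67.4, 194 and 51.4 CPM (1.82), but 1 nucleus held 34.8% of its UMIs. The immediate early list had 12 of 14 genes below 0 and 6 with an interval below 0 over members (over all genes 34.3% and 9.98%), with a median of -0.35. The single-sex groups had 11 of 12 below 0 and 10 with an interval below 0 (over all genes 40.4% and 10.8%), with a median of -0.63. Homer1 differed by -0.92 (-1.0 to -0.84) and Nr4a3 by -1.52 (-1.92 to -1.14) over members, although in the single-sex groups 1 nucleus held 43.2% of the Nr4a3 UMIs of this library. Inhba again was higher (1.15, interval 0.66 to 1.62). Less the median of all genes, the list stood at -0.47 in members and -0.70 in the single-sex groups, against -0.09 in subicular-type, -0.76 in deep-layer-type, -0.39 in CA1 and 0.62 in dentate granule nuclei.

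Oxidative phosphorylation genes were again above 0 in neuron MAGL-KO, all 23 over members, with 15 intervals above 0 (over all genes 65.7% and 25.5%) and a median of 0.44. Ribosomal protein genes had 70 of 71 above 0 and a median of 0.59, against 15 of 18 (over all genes 59.6%) and 0.46 in the single-sex groups. In the other 4 classes the medians ran from 0.38 to 0.61 and from 0.43 to 0.65. Among receptors, Gabrg1 was the furthest from 0 (21.2, 16.2, 26.3, 55.1 and 21.7 CPM; 1.77, interval 1.44 to 2.09), and it was 1.81 in the single-sex groups. The potassium channel list had a median of -0.15, against 0.12 for all genes, with 10 of 22 intervals below 0 (9.98% over all genes) and 1 above. The kainate and metabotropic list had a median of -0.17 with 7 of 12 below 0 and 4 above, but 0.10 in the single-sex groups. The highest potassium channel gene, Kcnh8, stood at 15.8, 17.1, 17.8, 47.3 and 19.7 CPM over members (1.47), and at 1.98, 0.642, 0, 14.8 and 0.354 CPM in the single-sex groups. In both sets it was high in this library alone, and 7 of the 12 nuclei of group 11 came from it. Ephb6 stood at 10.3, 9.34, 14.6, 19.9 and 13.2 CPM (1.09, and 1.43 in the single-sex groups). Abhd6, a further enzyme that breaks down 2-AG, was the lowest endocannabinoid gene (-0.36, and -0.64 in the single-sex groups).

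The library labelled global MAGL-KO had the fewest genes past 2-fold of the 3 MAGL-KO comparisons, and its members had the most UMIs of the 3 (6813971). Over all members 38 genes (0.393%) were higher and 47 (0.486%) lower of 9663. The split turned to 39 and 20 without nuclei of both sexes and 82 and 24 in Xist nuclei, and was 14 and 70 in Y nuclei. The single-sex groups had 17 (0.25%) higher and 15 (0.22%) lower genes of 6808. Mthfs, an enzyme of folate metabolism, stood at 24.5, 27.0, 33.8, 30.4 and 85.4 CPM (1.66, interval 1.44 to 1.88). The single-sex groups held 19.2, 21.4, 30.8, 20.2 and 80.5 CPM (1.91, interval 1.57 to 2.27), and the gene was high in this library alone. It was also higher in subicular-type (1.26), deep-layer-type (1.58), CA1 (1.54) and dentate granule nuclei (1.99). The kainate receptor gene Grik1 stood at 89.9, 89.8, 82.8, 49.9 and 181 CPM in the single-sex groups (1.01). Ide, insulin-degrading enzyme, which also cleaves amyloid-beta, stood at 74.7, 106, 66.0, 93.7 and 44.0 CPM in those groups (-1.27, interval -1.56 to -0.98), with -0.89 in subicular-type and -0.88 in deep-layer-type nuclei. The lowest ratio over all members was that of Hpse2 (10.3, 11.4, 9.82, 9.47 and 1.32 CPM; -3.11), which held 5 UMIs in 5xFAD and 0 in global MAGL-KO in the single-sex groups. Astrocyte genes followed, with the water channel gene Aqp4 at 18.2, 15.6, 5.25, 27.7 and 2.79 CPM (-2.48) and Slco1c1 at 26.7, 22.0, 8.45, 29.1 and 4.70 CPM (-2.23). The astrocyte marker sum was the lowest of the 5 libraries here, at 269 CPM, and group 5 held 15 of 348 members; its part in these values was not tested.

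The lists that stood apart in the other MAGL-KO libraries were near the median gene in global MAGL-KO. The immediate early list had a median of -0.02 (-0.03 in the single-sex groups), although 11 of 15 genes were below 0 and 6 had an interval below 0 over members (over all genes 47.3% and 10.8%). Nr4a2 differed by -0.70 (-0.95 to -0.46), and Egr4 by -0.71, while Bdnf was higher by 0.39 (0.23 to 0.55). The medians of the oxidative phosphorylation and ribosomal lists were -0.05 and -0.06. Of the AMPA and NMDA receptor genes 8 of 9 were above 0 (over all genes 52.7%), with a median of 0.07. The exception was Grin2c, at 10.7, 12.7, 3.65, 19.6 and 5.43 CPM (-1.22, interval -1.80 to -0.68), which held 1 UMI in the single-sex groups of this library and 0 in those of the other 4. Gria1 stood at 764, 620, 642, 655 and 849 CPM (0.45, interval 0.40 to 0.51; 0.23 in the single-sex groups). The metabotropic receptor gene Grm3 was lower (-0.64, interval -0.71 to -0.56; -0.60 in the single-sex groups). Tshz3, a layer factor, stood at 161, 228, 297, 288 and 381 CPM (0.74, interval 0.66 to 0.83), and in the single-sex groups at 280.2, 313, 407, 396.5 and 578 CPM, lowest in wild type and highest in global MAGL-KO in both sets.

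**Figure D5:**
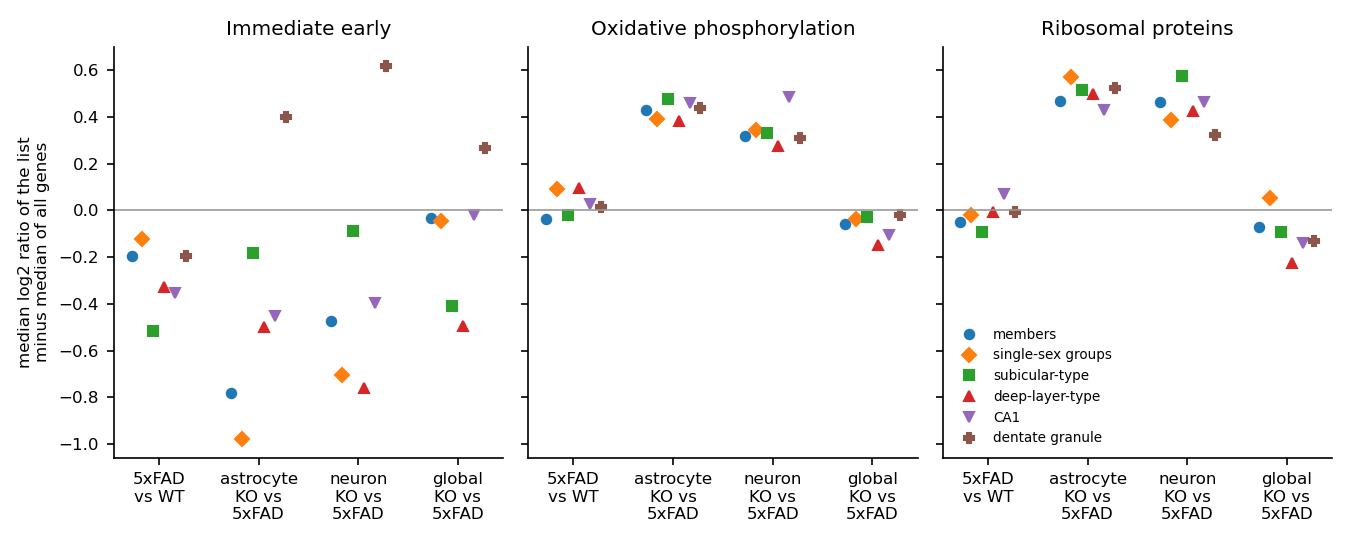
Median log2 ratio of each gene list less the median of all genes (y axis), for the immediate early, oxidative phosphorylation and ribosomal lists in the 3 MAGL-KO libraries against 5xFAD and 5xFAD against wild type, in members, their single-sex groups, subicular-type, deep-layer-type, CA1 and dentate granule nuclei. In astrocyte MAGL-KO the immediate early list is at -0.78 in members and -0.98 in the single-sex groups, against 0.40 in dentate granule nuclei.

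In the immediate early list as a whole, 5xFAD against wild type had a median of -0.20 (12 of 15 genes below 0, 7 with an interval below 0; over all genes 51.3% and 10.7%), and -0.13 in the single-sex groups (8 of 12 and 3; over all genes 52.2% and 8.4%). The same median was -0.52 in subicular-type, -0.31 in deep-layer-type, -0.36 in CA1 and -0.20 in dentate granule nuclei. Nr4a2 was the lowest member gene (80.4, 48.0, 28.8, 36.2 and 29.5 CPM; -0.74), followed by Nr4a3 (-0.49, interval -0.68 to -0.30). Arc stood at 30.9 and 33.5 CPM and Egr1 at 31.8 and 30.2 CPM in wild type and 5xFAD members, so these 2 induced genes were alike there.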

How the data were processed

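RNA and accessibility counts came from 5 single-nucleus multiome libraries, 1 per genotype. Per the file headers and the submitters' processing notes, the authors' matrices were made with Cell Ranger ARC 2.0.0 on mm10, and Seurat is also named in the notes. The deposited values are raw counts: UMIs per gene and cut sites per peak for each nucleus, with peaks called per library. Members, gene lists and tests were chosen with earlier results of these data known.

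Nuclei with at least 1000 detected genes were kept. UMIs were summed per library and divided by the total of 32285 genes (CPM). No doublet caller was run. Nuclei with at least 2 UMIs of Xist and at least 2 of 4 Y-linked genes together were counted as carrying both sexes and kept. Groups came from scanpy 1.11.5 (2000 variable genes, 30 components, 15 neighbours, Leiden resolution 0.5), and a group was named only from at least 3 detected markers of a list. CA1, CA3, dentate granule and astrocyte nuclei had their own list's score at 1 or more and highest of all lists. Peaks were merged over libraries, regions present in all 5 libraries were tested with edgeR 4.0.16 (R 4.3.3) after its expression filter, and cut-site CPM per library and class refers to cut sites in tested regions after TMM scaling. For groups, the single-sex groups and other cell classes it refers to cut sites in all 129601 regions present in all 5 libraries, without TMM scaling. DESeq2 1.42.0 was an alternative. The fit was also run on simulated counts, drawn without differences between libraries other than depth. That run does not show error rates in these data.

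Named genes were the rule genes, the 6 highest and 6 lowest ratios per comparison (interval without 0, same direction in Xist and Y nuclei, no mitochondrial, sex-linked or clone-named genes), the 2 ends of each list, the genes furthest from the neighbouring classes, and the regions of lowest p. Within the single-sex groups, which were defined from the data, the same rule was used. Some genes are not reported here. The text gives a part of each set. Motifs were planned for the central 300 bases of regions. No genome sequence was used here, and RefSeq promoter windows inside tested regions took their place, with Tnc, Dclk1 and Rcan1 chosen after the matches were seen. Fold, filter and scaling choices were varied, and the closing section gives their effect.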

Additional observations from a re-analysis of the deposited data

Results flagged for a closer look

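In 3 comparisons, genes differed by at least 2-fold in one direction between nuclei with Xist UMIs and in the opposite direction between nuclei with Y-linked UMIs. The difference between the sexes was not tested, and the values come from 1 library per genotype. They are log2 ratios of CPM over members, and 5052, 5040 and 5734 genes were examined in 5xFAD against wild type, neuron MAGL-KO against 5xFAD and global MAGL-KO against 5xFAD.

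In 5xFAD against wild type, Arhgap15 was 1.23 in Xist nuclei and -1.52 in Y nuclei. In neuron MAGL-KO against 5xFAD, 8 genes were higher in Xist nuclei and lower in Y nuclei. The Y ratios there rest on only 36 Y members in neuron MAGL-KO, against 184 in 5xFAD. Zfhx3, a homeobox factor, was 2.06 and -4.93, and Adarb2, an RNA-editing family member of interneurons, was 1.01 and -3.87. Eps8 was 2.27 and -2.28, Sema5a 1.94 and -2.15, and Tmem163 1.86 and -1.77. Sorcs3 was 1.28 and -1.10, Glis3 1.23 and -1.45, and Cntnap5c 1.06 and -1.24.

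In global MAGL-KO against 5xFAD, 18 genes showed the same opposition. Lef1 was 1.27 in Xist nuclei and -6.01 in Y nuclei, Prkcd 1.80 and -4.63, Synpo2 2.02 and -4.44, and Plekhg1 1.53 and -3.89. Zfhx3 was 1.94 and -3.05, Adamts19 1.55 and -2.96, and Adarb2 1.57 and -2.65. Reln, the secreted glycoprotein of Cajal-Retzius and entorhinal neurons, was 2.31 and -1.46, Tmem163 2.25 and -1.92, and Kcnc2 1.37 and -1.72. Vav3 was 1.31 and -2.39, Rnf220 1.03 and -1.94, and Vwc2 1.28 and -1.92. Rnf152 was 1.34 and -1.44, Tmcc3 1.02 and -1.28, and Srgap1 1.04 and -1.22. Sema5a was 1.35 and -1.21, and Prkg2 1.31 and -1.02.

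Several of these genes (Synpo2, Lef1, Plekhg1, Adamts19, Prkcd, Zfhx3, Adarb2 and Kcnc2) lead group 10. In 5xFAD that group held 3 Xist and 19 Y nuclei, in global MAGL-KO 17 Xist and 1 Y nuclei, and in neuron MAGL-KO 0 nuclei.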

How the results depend on the processing

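No paired analysis was possible because, between genotypes, each is 1 library whose replicate number pairs nothing. Between classes of nuclei within libraries, the accessibility test has the library as a block: without that block 3381 regions were higher and 2279 lower than in subicular-type nuclei, and 11361 and 8018 against deep-layer-type nuclei. Leaving out 1 library in turn gave 1937 to 3070 higher and 1217 to 2020 lower against subicular-type nuclei, and 9127 to 10207 and 6155 to 6958 against deep-layer-type nuclei. The higher score cut-off gave 2470 and 1601 against subicular-type nuclei. DESeq2 gave 4030 and 2833, and 11694 and 9353. Of the counts of regions under all alternatives, 38 stayed within 1.5 times and 10 did not.

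The share of members moved with the cut-off of the score. It was 5.48%, 10.5%, 5.61%, 4.91% and 6.40% with the cut-off lowered to 0.75, and 2.5%, 6.26%, 3.36%, 2.54% and 3.57% with it raised by as much. Among excitatory nuclei only it was 9.92% in 5xFAD, 5.34% in astrocyte and 5.30% in global MAGL-KO, and in the single-sex groups, an alternative chosen after seeing the data, it was 1.69%, 5.39%, 2.71%, 2.07% and 2.66%. The 5xFAD share was the highest under each of these. At Leiden resolution 1.0 there were 17 groups.

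Counts of genes past 2-fold moved most with the filter, and the cause of the other moves was not tested. They follow as 5xFAD against wild type, then astrocyte, neuron and global MAGL-KO against 5xFAD. Without a filter other than the floor of 3 counts they were 331 higher and 948 lower, 1623 and 306, 2608 and 204, and 768 and 489. With at least 50 UMIs they were 82 and 62, 313 and 108, 560 and 85, and 91 and 108. With a pseudocount of 5 CPM they were 23 and 10, 29 and 39, 100 and 23, and 10 and 12. In the single-sex groups they were 15 and 15, 74 and 36, 104 higher for neuron MAGL-KO, and 17 and 15. Size factors gave 70 and 98 in astrocyte and 126 and 82 in neuron MAGL-KO. In Xist nuclei 71 were lower in 5xFAD, 69 higher and 36 lower in astrocyte, and 82 higher and 24 lower in global MAGL-KO. In Y nuclei 16 were lower in 5xFAD, 48 higher in astrocyte, 60 higher and 108 lower in neuron, and 14 higher in global MAGL-KO. Without nuclei of both sexes 72 were lower in 5xFAD and 20 in global MAGL-KO. At the higher score cut-off 41, 42 and 20 were lower in 5xFAD, astrocyte and global MAGL-KO. The mean over nuclei gave 27 and 158 in 5xFAD. Over these settings the share of higher genes in 5xFAD thus ran to both sides of even.

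Of the ratios of named genes under the alternatives, 260 stayed inside the interval of the main ratio and 145 moved outside it with the same sign. Another 7 ratios reversed, all in the single-sex groups, where these genes had few UMIs and every interval held 0. Ratios resting on fewer than 6 UMIs over both libraries were left out of these counts. Against wild type, 5xFAD gave -0.46 for Prkch, -1.63 for Tafa4 and -1.10 for Adamts19. Astrocyte MAGL-KO gave 0.34 for Tafa4, and neuron MAGL-KO gave -0.044 for Ptgds, 0.072 for Prkch and 0.92 for Tmem132c. List medians held in 427 cases and moved in 5. Depth limits the neuron MAGL-KO and wild type values, with 83 and 87 nuclei in the single-sex groups. Nuclei with markers of both sexes, glial groups and 1 library per genotype limit every value over all members.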
